A study of Homo sapiens with 4 samples.

Results

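Passenger strand miRNAs, the less used arms of miRNA hairpins, were followed beside their guide strands in small RNA libraries of 4 human hepatoma cell populations. The HCC cells were the established lines Hep3B and Huh7, and the HCSCs were the stem-like cancer cells Hep3B-C and Huh7-C, each cultured from the line of the same name. A change within a line is that of the HCSCs over their own HCC cells, and values listed by 4 run Hep3B, Hep3B-C, Huh7, Huh7-C. The labels name no drug, altered gene or time point, and each condition had 1 library, so no value has a replicate. Whether an HCSC culture was a clone or a mixed population is not given in the sources used here. The members were the names ending in an asterisk with at least 10 raw counts in at least 1 of the 4 libraries, leaving out hsa-miR-22* and hsa-miR-122*, and they came to 93 of the 1733 miRNAs counted. The guide was the name without the asterisk, or without the asterisk and the locus suffix where the first name was absent.

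A miRNA hairpin is cut by the nucleases Drosha and Dicer into a duplex of its 5′ and 3′ arms. An Argonaute protein keeps one arm, the guide, and usually discards the other, the passenger, which is the strand that the asterisk marked in older miRBase releases. The choice is known to favour the arm whose 5′ end pairs less firmly and arms that begin with U, and bases 2 to 8 of the loaded arm, the seed, pair with target mRNAs. Both arms come from the same precursor, so their ratio within a library depends on which arm is kept and for how long, while their levels also follow how much precursor is made. For 19 of 82 members with both arms in RefSeq the guide is listed with more hairpins than the passenger, among them those of hsa-miR-7-1*, hsa-miR-29b-1*, hsa-miR-125b-2*, hsa-miR-194* and hsa-miR-196a*, and there the ratio also follows which locus is used.

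The arms on which the results turn are shown first, passenger before guide, with the seed in capitals. The sequences are RefSeq mature miRNAs of GRCh38.p14. The hsa-miR-15b, hsa-miR-589 and hsa-miR-7 hairpins were those whose ratio of passenger to guide was called lower in both lines.
hsa-miR-15b*: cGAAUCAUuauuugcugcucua
hsa-miR-15b: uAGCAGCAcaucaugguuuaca
hsa-miR-589*: uCAGAACAaaugccgguucccaga
hsa-miR-589: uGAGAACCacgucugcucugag
hsa-miR-7-1*: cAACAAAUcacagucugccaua
hsa-miR-7: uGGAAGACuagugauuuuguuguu

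The passenger arm of hsa-miR-30e gained on its guide in both pairs and is shown with its relative hsa-miR-30a, because the 2 passengers are nearly identical.
hsa-miR-30e*: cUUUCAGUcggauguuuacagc
hsa-miR-30e: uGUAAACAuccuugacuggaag
hsa-miR-30a*: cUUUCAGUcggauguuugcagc
hsa-miR-30a: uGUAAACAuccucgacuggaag

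The passengers of hsa-miR-125b and hsa-miR-29b are shown because each guide is made from 2 loci that only the passenger can tell apart, and hsa-miR-374a* because it was the most abundant passenger.
hsa-miR-125b-1*: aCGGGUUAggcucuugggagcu
hsa-miR-125b-2*: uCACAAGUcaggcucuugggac
hsa-miR-125b: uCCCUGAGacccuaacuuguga
hsa-miR-29b-1*: gCUGGUUUcauauggugguuuaga
hsa-miR-29b-2*: cUGGUUUCacaugguggcuuag
hsa-miR-29b: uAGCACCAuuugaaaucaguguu
hsa-miR-374a*: cUUAUCAGauuguauuguaauu

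Of the 93 passengers, 86 were matched to a RefSeq sequence, 82 with both arms. U was the first base of 16.3% of the 86 passengers and of 71.3% of the 80 distinct guides matched, and C was the first base of 43.0% and 12.5%. Among the 2351 distinct mature sequences kept from the RefSeq table, which were not all of it, 36.9% began with U. The passenger was the 3′ arm in 55 of the 86 hairpins and the 5′ arm in 31. The matched passengers held 80 distinct seeds. Among these matched passengers 6 seeds were shared, each by 2 of them. They included the seed UUUCAGU of hsa-miR-30a* and hsa-miR-30e* and the seed CAAUAUU of hsa-miR-16-2* and hsa-miR-195*. The unmatched members, among them hsa-miR-30b* and hsa-miR-30d* of the miR-30 group, were not compared. More members may therefore hold a shared seed or a near-identical sequence. In none of the 82 hairpins did both arms have the same seed. Between hsa-miR-30a* and hsa-miR-30e* there was a single substitution, G18A, counted from the 5′ end with the base of hsa-miR-30a* first, so that reads with an error or a trimmed end may be assigned to the wrong one of this pair.

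The libraries held 1739278 (Hep3B), 5430195 (Hep3B-C), 5741567 (Huh7) and 4045199 (Huh7-C) miRNA counts, which were between 10.4% (Hep3B) and 54.1% (Huh7) of their total reads. Levels are in TPM, counts per 1000000 total reads of the library, and 3 counts, taken as the lowest level the depth can show, were between 0.179 TPM (Hep3B) and 0.282 TPM (Huh7). The confidence intervals cover counting error only. The liver miRNAs hsa-miR-122, hsa-miR-192 and hsa-miR-194 together reached between 10997 TPM (Hep3B) and 115636 TPM (Huh7). Alone, hsa-miR-122 had 397, 149892, 489443 and 144814 counts. The sum in Hep3B was mostly hsa-miR-192, at 179088 of 184559 counts. The neuronal hsa-miR-124 and 5 miRNAs of pluripotent cells were at 0 in every library. Blood cell miRNAs summed to 796 counts in Huh7, 773 of them hsa-miR-451, and to 8 or fewer in each of the other libraries, and 4 muscle miRNAs to between 16 and 139. As each value comes from a bulk culture, fewer cells with a miRNA and less of it per cell cannot be told apart.

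Among all starred names 60 had no count in any library and 39 had at most 9. The rule selected members by their counts: 39 had at least 10 counts in all 4 libraries, 13 in 3, 25 in 2 and 16 in exactly 1. Of those 16, 7 passed only through Hep3B-C and 9 only through Huh7, so that a difference between libraries was built into their choice. Just inside the threshold stood hsa-miR-141* with a highest count of 11, and hsa-miR-34b* and hsa-miR-624* with 12 each. Just outside it were hsa-miR-24-1* and hsa-miR-33a* with 9, and hsa-miR-135b* and hsa-miR-379* with 8. Every member had a guide row, 15 of them by removing the locus suffix, and 6 guides were each shared by 2 members.

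Passengers were a small share of the miRNA pool. The 93 members summed to 31624, 88249, 219578 and 136658 counts, which were 1.82%, 1.63%, 3.82% and 3.38% of all miRNA counts. Of the reads of both arms, passengers took 2.52%, 2.34%, 4.52% and 3.87%, in the same order. Without the most abundant passenger of each library these shares lay between 1.71% (Hep3B-C) and 1.90% (Hep3B). The higher share in the Huh7 libraries thus belonged to 1 molecule, hsa-miR-374a*, which made up 59.3% of all passenger counts in Huh7 and 54.4% in Huh7-C. In Hep3B it was also the leading passenger, at 24.96% of passenger counts, and in Hep3B-C the lead was taken by hsa-miR-30e* with 27.1%.

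The passenger's part of the reads of a hairpin varied widely. Among hairpins with at least 30 reads of both arms, its median share was 3.24% (Hep3B, 79 hairpins), 3.73% (Hep3B-C, 86), 4.38% (Huh7, 78) and 2.95% (Huh7-C, 74). The quartiles were 0.301% and 12.9% in Hep3B, and between 23 and 31 hairpins of a library had a share of 1% to 10%, beside between 25 and 30 with a share under 1%. At the low end stood the passengers of very abundant guides. The passenger of hsa-miR-192, a liver-enriched miRNA, had 5, 19, 116 and 26 counts in Hep3B, Hep3B-C, Huh7 and Huh7-C beside between 179088 and 706923 counts of the guide, a share of between 0.00279% (Hep3B) and 0.0164% (Huh7). For hsa-miR-21*, the passenger of an abundant oncogenic miRNA, the share was between 0.0766% (Hep3B) and 0.117% (Huh7).

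**Figure D1:**
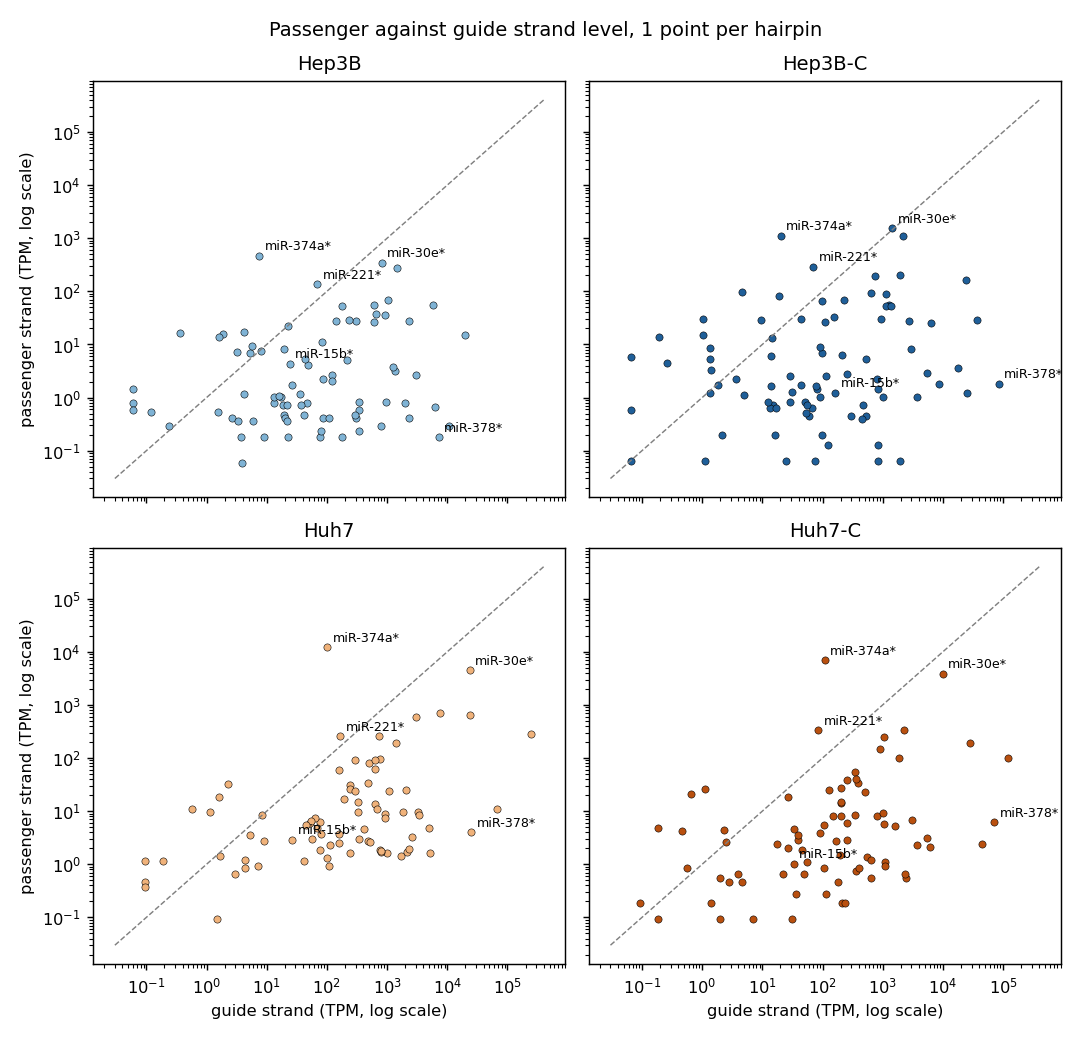
Level of the passenger strand (TPM, log scale) against that of its guide strand (TPM, log scale) in each of the 4 libraries, 1 point per member, with equal levels on the dashed line. Points need a count of both arms, which 82 (Hep3B), 88 (Hep3B-C), 81 (Huh7) and 80 (Huh7-C) members had. Most points lie below the line, and hsa-miR-374a* and hsa-miR-221* lie above it in every panel.

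Hairpins were ranked much alike by their ratios in the 4 libraries. Over the 70 members with at least 30 arm reads in every library, Pearson's r of the log2 ratio of passenger to guide was 0.957 between Hep3B and Hep3B-C and 0.964 between Huh7 and Huh7-C, with Spearman's rho of 0.941 and 0.931. Between the HCC cells of different lines r was 0.903, and between the HCSCs it was 0.928. These values span hairpins of widely different ratios, and the median absolute difference of the log2 ratio was 0.63 within the Hep3B line, 0.84 within the Huh7 line, 1.13 between the HCC cells and 0.72 between the HCSCs. These are descriptions across hairpins, which share their sequences and libraries between the axes and are not independent replicates.

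A group of members was more abundant than the strand named as guide. With at least 10 counts of the passenger required, this held for 12 of 56 members (Hep3B), 15 of 72 (Hep3B-C), 10 of 77 (Huh7) and 8 of 56 (Huh7-C), and for 19 different members in at least 1 library. The 6 that did so in all 4 libraries were hsa-miR-374a*, hsa-miR-500a*, hsa-miR-365*, hsa-miR-664*, hsa-miR-221* and hsa-miR-193b*, of which hsa-miR-365* and hsa-miR-193b* were picked out after their values were seen. In these 6 hairpins the asterisk did not mark the rarer strand by counts, though the share of hsa-miR-193b* in Huh7 was 50.8% with an interval of 43.3% to 58.4%.

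Among the well-covered hairpins whose passenger exceeded the guide, the most lopsided was hsa-miR-374a, which lies in an intron of the long noncoding RNA FTX, a gene of the X-inactivation centre (GRCh38, chrX:74287286-74287357). Its passenger had 7892, 17249, 130136 and 74317 counts. The guide had 7.45 TPM in Hep3B, its lowest level, and 314, 1072 and 1168 counts in the others, so that the passenger took between 98.2% and 99.2% of the arm reads. The passenger level was higher in both Huh7 libraries, at 12251 TPM in Huh7 against 470.2 TPM in Hep3B, while its share of the arm reads stayed within that narrow range. The size of this contrast rests on the library size, as TPM uses total reads. Of all miRNA counts hsa-miR-374a* made up 0.454% (Hep3B), 0.318% (Hep3B-C), 2.27% (Huh7) and 1.84% (Huh7-C).

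The hairpin hsa-miR-500a, in an intron of the chloride transporter gene CLCN5 (chrX:50008431-50008514), gave 277, 461, 346 and 277 passenger counts against 6, 16, 24 and 12 of the guide. Its passenger share was between 93.5% (95% Clopper-Pearson interval 90.5% to 95.8%) in Huh7 and 97.9% (95.4% to 99.2%) in Hep3B. For hsa-miR-664*, from an intron of RAB3GAP2 (chr1:220200538-220200619), 290, 235, 103 and 46 passenger counts stood beside 70, 16, 12 and 5 of the guide. Its share was 80.6% (76.1% to 84.5%) in Hep3B and 93.6% (89.9% to 96.3%) in Hep3B-C, so that these intervals did not overlap.

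The other named members over their guide had few guide reads. In hsa-miR-625*, from an intron of the fucosyltransferase gene FUT8 (chr14:65471102-65471186), the counts were 6, 70, 115 and 52 against 0, 4, 6 and 2 of the guide. Counts of hsa-miR-1228* were 13, 88, 3 and 6 against 1, 1, 0 and 0, and those of hsa-miR-1226* 9, 16, 4 and 9 against 2, 0, 0 and 0. The 1, 9, 12 and 4 counts of hsa-miR-624* stood beside 0, 1, 1 and 0 of its guide. The member hsa-miR-144* was the only one whose guide was at 0 in every library. It had 4, 9, 17 and 4 counts and was a member only through Huh7, so that its peak there was built into its choice. Huh7 also held 773 counts of the neighbouring red blood cell miRNA hsa-miR-451 (2 in Huh7-C). Of the other listed blood cell miRNAs, hsa-miR-142-3p had 20 counts in Huh7, hsa-miR-142-5p had 3 and hsa-miR-223 had 0. Both hsa-miR-144 and hsa-miR-150 were at 0 in every library. The part of blood RNA in the counts of hsa-miR-144* was not tested.

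**Figure D2:**
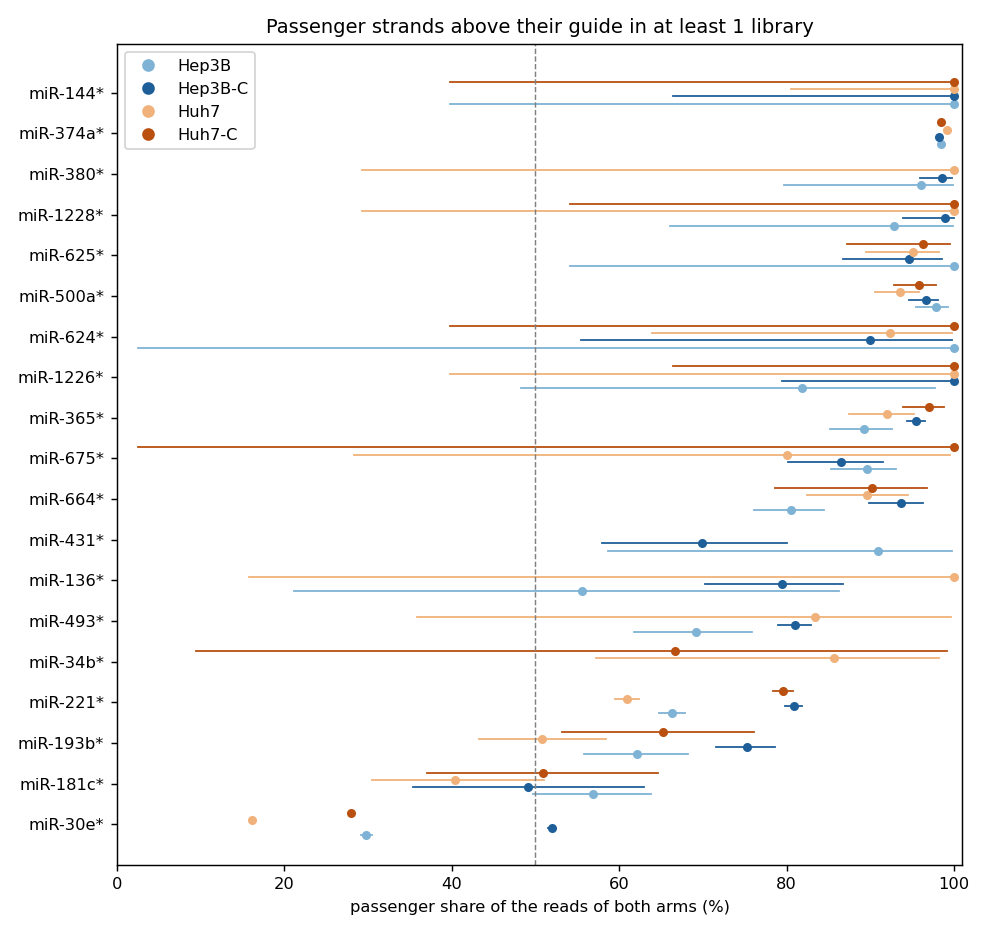
Passenger share of the reads of both arms (%, horizontal axis) of the 19 members that exceeded their guide in at least 1 library, with 1 point per library and 95% Clopper-Pearson intervals as lines. The points of hsa-miR-374a* lie between 98.2% and 99.2%, and those of hsa-miR-30e* reach 51.9% in Hep3B-C against 29.8% in Hep3B.

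The levels of passengers were next compared between HCSCs and HCC cells of the same line, by Audic and Claverie's exact test of Poisson counts over all miRNAs with at least 1 count in the pair. A miRNA was called at a log2 fold-change of TPM of 1 or more in either direction and a Benjamini-Hochberg adjusted p no higher than 0.01. Such a test compares 2 libraries by counting error and says nothing of the variation between cultures. In Hep3B-C against Hep3B, 37 of 90 tested members were called up-regulated (41.1%; background over all 834 miRNAs tested 33%) and 4 down-regulated (4.44%; background 2.52%). In Huh7-C against Huh7, 0 of 89 were called up-regulated (background over 772 miRNAs 2.98%) and 30 down-regulated (33.7%; background 17.1%). Low counts rarely reach a call, and with at least 10 counts in a library of the pair the shares were 48.7% of 76 members against 57.7% of 475 miRNAs called up-regulated within the Hep3B line. Within the Huh7 line they were 39.0% of 77 members against 30.4% of all miRNAs called down-regulated. The members thus followed the direction of the whole table in each pair.

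That direction rests on the library size. The median log2 fold-change of all miRNAs that had at least 10 counts in each library of the pair was 1.25 within the Hep3B line and −0.51 within the Huh7 line. With the total miRNA counts as library sizes these medians became −0.52 and 0.01, a shift of −1.76 and 0.52 for every miRNA. Of the members, 5 were then called up-regulated and 20 down-regulated within the Hep3B line (background 5.28% and 13.4%), and 3 up-regulated and 16 down-regulated within the Huh7 line (background 6.99% and 9.59%). Under all 4 scalings tried (total reads, miRNA counts, TMM and DESeq2 size factors), the same 5 members were called up-regulated within the Hep3B line, hsa-miR-136*, hsa-miR-194*, hsa-miR-380*, hsa-miR-493* and hsa-miR-625*. The 4 called down-regulated under all of them were hsa-miR-15b*, hsa-miR-181c*, hsa-miR-26a-2* and hsa-miR-589*. Within the Huh7 line 16 members were called down-regulated under all 4 scalings. Among these calls, hsa-miR-136* was a member only through Hep3B-C, and hsa-miR-186* and hsa-miR-629* only through Huh7. How many of all miRNAs kept a call under all 4 scalings was not counted. The ratio of passenger to guide within a library uses no library size and was therefore the main measure.

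Both arms followed the shift of all miRNAs by their medians. With at least 10 counts of each arm in both libraries, the median log2 fold-change was 1.09 for the passenger and 0.90 for the guide within the Hep3B line (48 members), and −0.77 and −0.61 within the Huh7 line (53 members). The log2 change of the ratio had a median of 0.07 and −0.25, beside −0.06 and −0.11 over all hairpins with 2 named arms that passed the same minimum (69 and 78). It lay within 1 in 39 of 48 and 39 of 53 members. Between the fold-changes of passenger and guide, r was 0.44 within the Hep3B line (65 members) and 0.36 within the Huh7 line (69 members), across hairpins of shared libraries. By Fisher's exact test over all hairpins with 2 named arms, at the same thresholds, the ratio was called higher in 8 and lower in 5 of 89 members in Hep3B-C (background 6.15% higher and 5.13% lower over all hairpins tested). In Huh7-C it was called higher in 6 and lower in 12 of 84 members (background 5.52% higher and 9.39% lower). As shares of the members tested these were 8.99% and 5.62% within the Hep3B line, and 7.14% and 14.3% within the Huh7 line.

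**Figure D3:**
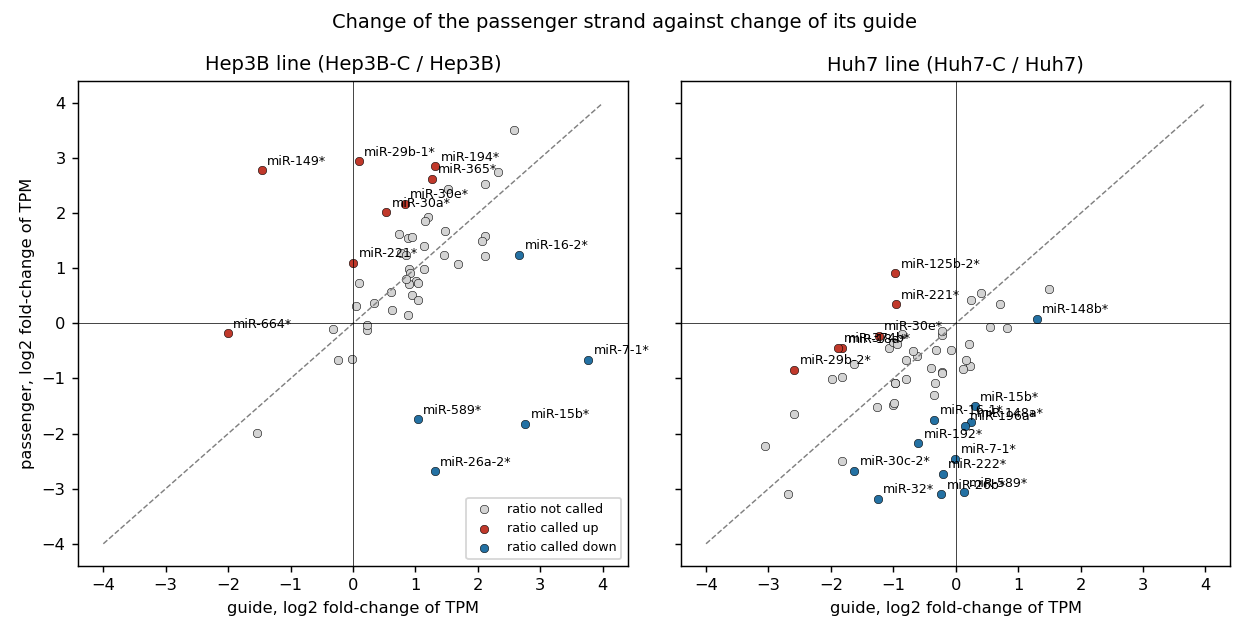
Log2 fold-change of TPM of the passenger (vertical axis) against that of its guide (horizontal axis), HCSCs over HCC cells, for members with at least 10 counts of each arm in both libraries or with a called ratio (52 within the Hep3B line, 57 within the Huh7 line). Equal change lies on the dashed line, and colour marks ratios called higher or lower. The point of hsa-miR-15b* lies at −1.82 against 2.76 for its guide within the Hep3B line.

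Calls in both lines were not counted over all hairpins with 2 named arms. Among the members, 3 had a ratio called lower in both lines. The largest of their changes within the Hep3B line was that of hsa-miR-15b*, whose guide belongs to the miR-15/16 family, known for repressing cell cycle genes and BCL2. Its passenger had 73 counts (Hep3B) and 19 (Hep3B-C), while the guide had 403 and 2506. Within the Huh7 line the passenger had 31 and 11 counts and the guide 284 and 354. The guide was called up-regulated in Hep3B-C, at a log2 fold-change of 2.76, and was at 0.30 in Huh7-C. The share fell from 15.3% (12.2% to 18.9%) to 0.752% (0.454% to 1.17%) within the Hep3B line and from 9.84% (6.79% to 13.7%) to 3.01% (1.51% to 5.33%) within the Huh7 line. The log2 ratio change was −4.58 (95% exact interval −5.40 to −3.81; Fisher's exact test, adjusted p = 1.39e-41) and −1.81 (−2.98 to −0.75; adjusted p = 0.00157). This member was also in the study's own list of altered miRNAs, which was chosen on these libraries.

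The second was hsa-miR-589*, from an intron of the F-box gene FBXL18 (chr7:5495819-5495917). Its counts were 29, 8, 58 and 7, against 441, 832, 478 and 528 of the guide. Both HCSC libraries were under both HCC libraries in passenger counts, and the log2 fold-change of the guide was 1.04 and 0.13. The share was 6.17% and 0.952% within the Hep3B line and 10.8% and 1.31% within the Huh7 line, and the log2 ratio change was −2.77 (−4.12 to −1.59) and −3.19 (−4.58 to −2.04). The third was hsa-miR-7-1*, the passenger of hsa-miR-7, which is known for repressing EGFR signalling. Its counts were 12, 7, 49 and 9, and those of the guide 365, 4578, 4373 and 4375. Within the Hep3B line the guide rose by 3.77 on the log2 scale, while the log2 fold-change of the passenger was −0.66, not called, and −2.42, called, with miRNA counts as library sizes. The guide was at −0.01 within the Huh7 line, while the passenger fell by 2.46. The log2 ratio change was −4.43 (−6.02 to −2.95) and −2.45 (−3.66 to −1.40). As hsa-miR-7 has further loci, its ratio does not describe the hsa-miR-7-1 hairpin alone.

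The ratio was called higher in both lines for hsa-miR-221* and hsa-miR-30e*. The guide hsa-miR-221 is a much studied oncogenic miRNA of liver cancer that represses the cell cycle inhibitor p27. Counts of hsa-miR-221* were 2298, 4527, 2742 and 3533, against 1167, 1073, 1754 and 907 of the guide. The passenger was thus the more abundant arm throughout, and more so in the HCSCs. Its share was 66.3% (64.7% to 67.9%) and 80.8% (79.8% to 81.9%) within the Hep3B line and 61.0% (59.5% to 62.4%) and 79.6% (78.4% to 80.7%) within the Huh7 line. The log2 ratio change was 1.10 (0.96 to 1.24; Fisher's exact test, adjusted p = 4.67e-52) and 1.32 (1.18 to 1.46; adjusted p = 1.27e-81). The neighbouring hsa-miR-222* moved otherwise. It had 12, 13, 79 and 12 counts, and its log2 ratio change was −0.39 (−1.66 to 0.90) within the Hep3B line, not called, and −2.52 (−3.55 to −1.62) within the Huh7 line.

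For hsa-miR-30e*, which comes from an intron of the transcription factor gene NFYC (chr1:40754355-40754446), the counts were 5758, 23904, 47968 and 41521. Those of its guide were 13555, 22133, 250081 and 107033. The passenger went from 29.8% to 51.9% of the arm reads within the Hep3B line, where it overtook the guide, and from 16.1% to 28.0% within the Huh7 line. The log2 ratio change was 1.35 (1.29 to 1.40) and 1.02 (0.99 to 1.04). Its near-identical relative hsa-miR-30a* had 4636, 17276, 7409 and 1606 counts against 24819, 33017, 79756 and 9728 of the guide. Here the share went from 15.7% to 34.4% and from 8.50% to 14.2%, and the log2 ratio change was 1.49 (1.43 to 1.54), called, and 0.83 (0.75 to 0.91), under the fold threshold.

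**Figure D4:**
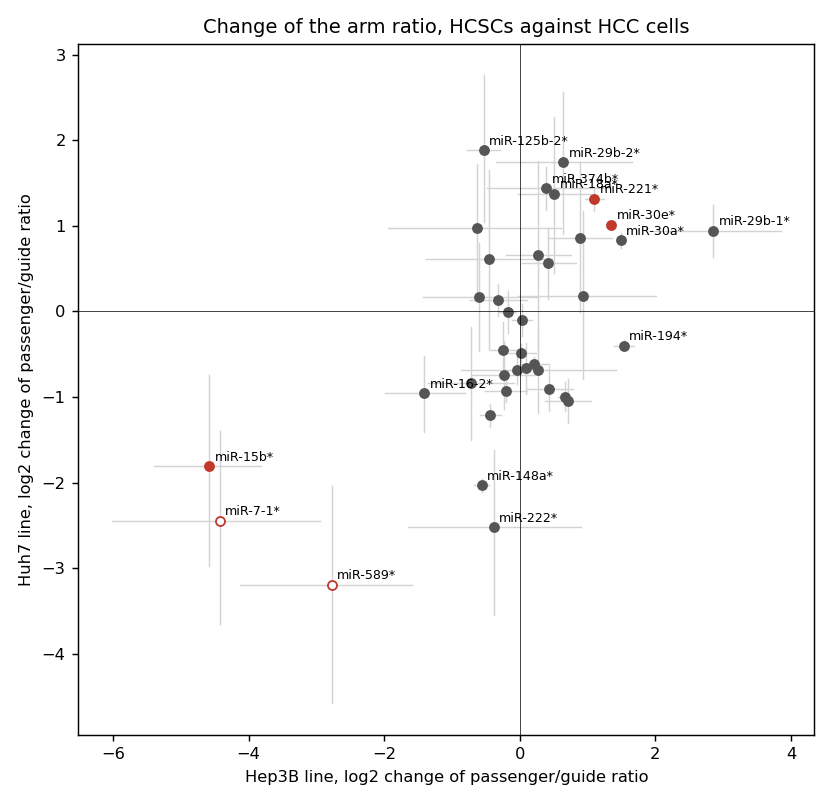
Log2 change of the passenger to guide ratio, HCSCs over HCC cells, within the Huh7 line (vertical axis) against the Hep3B line (horizontal axis), with 95% exact intervals as grey lines. The 36 filled points had at least 10 counts of each arm in all 4 libraries, and the 2 open points had fewer counts but were called in both pairs. Red points were called the same way in both pairs, with hsa-miR-15b* at −4.58 and −1.81.

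Over the 36 members with at least 10 counts of each arm in all 4 libraries, the ratio change had the same sign in both pairs for 22, 11 higher and 11 lower, and opposite signs for 14. Across these hairpins r was 0.45 and rho 0.40, as a description of 4 libraries that share no sample between the pairs. No ratio of a member was called in opposite directions, and this was not counted over all hairpins either.

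Other ratios were called in 1 pair only, and the difference between the pairs was not tested. Within the Hep3B line hsa-miR-29b-1* had 13 and 92 counts beside a guide with a log2 fold-change of 0.09 (219 counts in Hep3B), which gave the largest rise among members with at least 10 counts of each arm, 2.85 (1.95 to 3.85), though this guide comes from 2 loci. Counts of hsa-miR-194*, the passenger of a miRNA typical of liver and gut epithelium, were 461 and 3059 against 5074 and 11629 of the guide, a rise of 1.53 (1.38 to 1.69), and this guide too has a further locus. The guide of hsa-miR-664* fell from 70 to 16 counts while the passenger went from 290 to 235, and the ratio rose by 1.83 (0.98 to 2.75). Lower ratios with at least 10 counts of each arm within the Hep3B line were those of hsa-miR-15b* and of hsa-miR-16-2*, at −1.41 (−1.99 to −0.81). The remaining calls, picked out after their values were seen, were hsa-miR-149* (3 and 19 counts against 63 and 21 of the guide), which rose by 4.25 (2.25 to 6.74), hsa-miR-365* (266 and 1510 against 32 and 71), which rose by 1.36 (0.68 to 2.01), and hsa-miR-26a-2*, at −4.0 (−7.17 to −1.87) from 14 and 2 counts. Of these, hsa-miR-149* was a member only through Hep3B-C, so that its rise was partly built into its choice. The guides of hsa-miR-16-2* and hsa-miR-26a-2* have further loci.

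Within the Huh7 line the ratio rose most for hsa-miR-125b-2* (20 and 38 counts against 819 and 422 of the guide), by 1.88 (1.04 to 2.76). For hsa-miR-29b-2* (39 and 22 against 1697 and 285) it rose by 1.75 (0.90 to 2.56), and for hsa-miR-374b* (367 and 272 against 5103 and 1396) by 1.44 (1.19 to 1.68). For hsa-miR-18a* (27 and 20 against 1687 and 482) the rise was 1.37 (0.45 to 2.28). In these 4 hairpins the log2 fold-change of the guide was between −2.59 and −0.97, and no passenger level was called with total reads. With the 3 other library sizes hsa-miR-125b-2* was called up-regulated (1.43, 1.42 and 1.53). The guides of hsa-miR-125b-2* and hsa-miR-29b-2* have further loci.

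Of the 12 ratios called lower within the Huh7 line, 3 were those called lower in both lines. The others lay between −2.86 (hsa-miR-26b*, 17 and 2 counts, a member only through Huh7) and −1.05 (hsa-miR-30c-2*). Of these others, hsa-miR-222*, hsa-miR-148a* and hsa-miR-196a* were the largest falls with at least 10 counts of each arm. The abundant hsa-miR-148a, a miRNA of differentiated liver, had 256476 guide counts in Huh7 and 306533 in Huh7-C, while its passenger went from 7003 to 2043. The passenger share fell from 2.66% (2.60% to 2.72%) to 0.662% (0.634% to 0.691%), a log2 ratio change of −2.03 (−2.11 to −1.96). Within the Hep3B line both arms were higher in the HCSCs (947 and 2470 passenger, 95296 and 366764 guide counts), and the ratio change was −0.56 (−0.67 to −0.45), under the fold threshold. The HOX cluster miRNA hsa-miR-196a had 35807 and 39922 guide counts beside 90 and 25 of the passenger, a change of −2.0 (−2.71 to −1.35), where the guide again has a further locus. At 0 and 1 passenger counts and 10 and 17 guide counts this hairpin could not be compared within the Hep3B line.

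The passengers also separate loci that make the same guide. The guide hsa-miR-125b comes from a locus on chromosome 11, beside hsa-miR-100 within MIR100HG (hsa-miR-125b-1 at chr11:122099757-122099844), and from one on chromosome 21 near hsa-miR-99a. In both Hep3B libraries the passenger reads came almost wholly from hsa-miR-125b-2*, with 372 and 1025 counts against 3 and 3 of hsa-miR-125b-1*, or 99.2% (97.7% to 99.8%) and 99.7% (99.1% to 99.9%). In Huh7 hsa-miR-125b-2* was the minor one, with 20 against 65 counts, or 23.5% (15% to 34%). In Huh7-C it had 38 against 31 counts, or 55.1% (42.6% to 67.1%), so that its interval did not overlap that of Huh7. Of the neighbours, the guide hsa-miR-99a had 361 and 1191 counts in Hep3B and Hep3B-C and 12 and 15 in Huh7 and Huh7-C, and its passenger 6, 26, 0 and 2. The guide hsa-miR-100 had 1307 and 378, then 8097 and 3876, and its passenger 3, 1, 20 and 8.

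The locus on chromosome 7 (hsa-miR-29b-1 at chr7:130877459-130877539, beside hsa-miR-29a) and that on chromosome 1 (hsa-miR-29b-2 at chr1:207802443-207802523, beside hsa-miR-29c) both make hsa-miR-29b, a miRNA known for repressing collagens. Of the passenger reads of both, hsa-miR-29b-2* took 56.7% (37.4% to 74.5%) of the reads of Hep3B and 22.03% (14.9% to 30.6%) of those of Hep3B-C. For Huh7 and Huh7-C this share was 5.89% (4.22% to 7.97%) and 9.87% (6.29% to 14.6%). The intervals of the Hep3B line did not overlap, and those of the Huh7 line did. In all 4 libraries the 2 passengers summed to between 30 and 662 counts, the lowest in Hep3B.

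For hsa-miR-30c the locus on chromosome 6 gave most passenger reads, and hsa-miR-30c-2* took 94.6% in Hep3B and in Hep3B-C. Its share was 87.3% (85.2% to 89.2%) in Huh7 and 64.2% (57.8% to 70.2%) in Huh7-C. On chromosome 6 hsa-miR-30c-2 (chr6:71376960-71377031) and hsa-miR-30a (chr6:71403551-71403621) lie in introns of LINC00472, and on chromosome 1 hsa-miR-30c-1 (chr1:40757284-40757372) lies with hsa-miR-30e in NFYC. Within the Huh7 line the log2 fold-change was −2.22 (−2.30 to −2.14) for hsa-miR-30a* and −2.68 (−2.93 to −2.43) for hsa-miR-30c-2*, both in LINC00472. It was −0.22 (−0.24 to −0.20) for hsa-miR-30e* and −0.74 (−1.14 to −0.35) for hsa-miR-30c-1*, both in NFYC, and with miRNA counts as library sizes that of hsa-miR-30e* changed sign to 0.30. Within the Hep3B line all 4 lay between 1.87 and 2.17, and between 0.10 and 0.41 with miRNA counts as library sizes, where none was called.

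The shares of hsa-miR-16-2* were 84.4% and 92.2% within the Hep3B line and 60.4% and 67.4% within the Huh7 line, with overlapping intervals within each pair. For hsa-miR-181a-2* they were 32.5%, 36.8%, 45.9% (41.9% to 49.96%) and 34.9% (30.5% to 39.6%), and only the last 2 had intervals that did not overlap within a pair. For hsa-miR-26a the passengers of both loci summed to 3 counts in Hep3B-C, too few to compare.

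**Figure D5:**
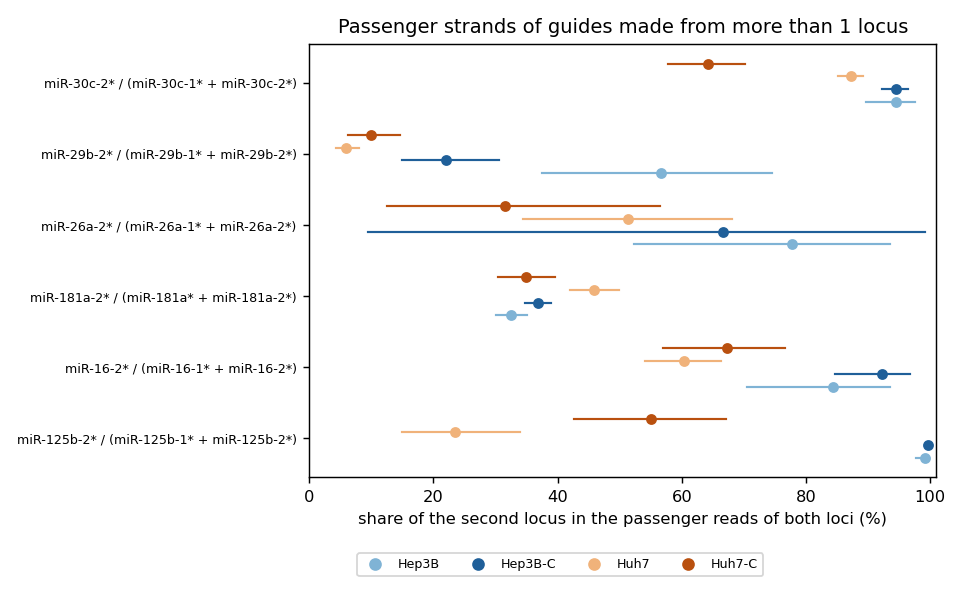
Share of the second locus in the passenger reads of both loci (%, horizontal axis) for the 6 guides made from 2 loci with a member each, with 1 point per library and 95% Clopper-Pearson intervals as lines. In the hsa-miR-125b row the points of Hep3B and Hep3B-C lie at 99.2% and 99.7%, that of Huh7 at 23.5% and that of Huh7-C at 55.1%.

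The groups of related hairpins were read by their counts of calls. Of all miRNAs with at least 10 counts in a library of the pair, 57.7% were called up-regulated within the Hep3B line and 30.4% down-regulated within the Huh7 line, and each group's counts stand beside these backgrounds. The group of the imprinted 14q32 locus, a large miRNA cluster expressed from the maternal chromosome, had 5 members (hsa-miR-136*, hsa-miR-380*, hsa-miR-411*, hsa-miR-431* and hsa-miR-493*). They summed to 161 counts in Hep3B and 1617 in Hep3B-C, but to 11 in Huh7 and 0 in Huh7-C. All 5 were called up-regulated within the Hep3B line, and none within the Huh7 line. The calls of hsa-miR-411* and hsa-miR-431* were made with total reads and lost with each of the 3 other library sizes. The log2 fold-change within the Hep3B line was between 2.47 (hsa-miR-431*, 10 and 51 counts) and 4.14 (hsa-miR-136*, 5 and 81 counts), and between 0.71 and 2.38 with miRNA counts as library sizes. No ratio of these 5 was called. The guides of 4 were called up-regulated as well, among them hsa-miR-493 (54 and 296 guide counts beside 121 and 1263 of the passenger). Both hsa-miR-136* and hsa-miR-411* were members only through Hep3B-C. In 4 of them the passenger exceeded the guide, and hsa-miR-380* had 24 and 209 counts against 1 and 3.

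The miR-30 group had 6 members, of which 4 were called up-regulated within the Hep3B line and 3 down-regulated within the Huh7 line (background 57.7% and 30.4%). Of the 4, hsa-miR-30e* kept its call with TMM and DESeq2 size factors and none did with miRNA counts. The group was the largest by counts, with sums of 10603, 41732, 56614 and 43429. Of the 4 members of the miR-29 group, 1 was called up-regulated within the Hep3B line (background 57.7%) and 3 down-regulated within the Huh7 line (background 30.4%), where hsa-miR-29a* went from 255 to 30 counts and its guide from 11462 to 1795. The miR-15/16 group had 5 members, with 1 called up-regulated, 1 down-regulated and 2 ratios lower within the Hep3B line, and 3 down-regulated and 2 ratios lower within the Huh7 line. Inside an intron of SMC4 hsa-miR-15b (chr3:160404588-160404685) and hsa-miR-16-2 (chr3:160404745-160404825) lie next to each other. Within the Hep3B line the guides hsa-miR-15b and hsa-miR-16 rose by 2.76 and 2.66 on the log2 scale. As hsa-miR-16 has a further locus, its rise cannot be assigned to the hsa-miR-16-2 hairpin. The log2 fold-change of the passenger was −1.82 for hsa-miR-15b* and 1.25 for hsa-miR-16-2*, and that of hsa-miR-16-2* turned to −0.52 with miRNA counts as library sizes.

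The miR-17-92 cluster and its paralogs, whose guides are known to promote proliferation, had 8 members, of which 5 were called up-regulated within the Hep3B line and 2 down-regulated within the Huh7 line (background 57.7% and 30.4%). Among them hsa-miR-17* had 1134, 3072, 971 and 575 counts. Its log2 fold-change within the Hep3B line was 1.56, and −0.20 with miRNA counts as library sizes. All 3 members of the miR-200 group, whose guides are known for keeping cells epithelial, were called up-regulated within the Hep3B line with total reads (background 57.7%), and none with the 3 other library sizes. With 0 and 11 counts hsa-miR-141* was a member through Hep3B-C. The level of hsa-miR-200b* was 28.9 and 92.5 TPM in that pair and that of hsa-miR-200a* 11.2 and 33.4 TPM, while the Huh7 libraries held 0 and 1 counts of the first and none of the second. Their log2 fold-changes of 1.68 and 1.57 became −0.08 and −0.19 with miRNA counts as library sizes. In the miR-23/27/24 group of 4, none was called up-regulated in either pair and 2 were down-regulated within the Huh7 line, where hsa-miR-27b* went from 2032 to 361 counts. In the group of hsa-miR-26a, hsa-miR-26b and hsa-miR-101 hairpins, also of 4, 1 was called down-regulated within the Hep3B line and 2 within the Huh7 line.

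The other groups held few calls. In the miR-99/miR-100/miR-125 group of 5 members, 2 were called up-regulated within the Hep3B line and 2 down-regulated within the Huh7 line. Of 3 miR-181 members 1, hsa-miR-181c* (116, 27, 38 and 28 counts), was called down-regulated in Hep3B-C, and its guide with it. Both members of the miR-192/miR-194 group were called up-regulated in Hep3B-C, and hsa-miR-192* down-regulated in Huh7-C. The miR-148 group and the miR-221/miR-222 group had 2 members each, with 1 up-regulated in Hep3B-C and 1 down-regulated in Huh7-C. Of the HOX cluster members, hsa-miR-10b* and hsa-miR-196a*, 1 was down-regulated in Huh7-C. The let-7 member hsa-let-7a* and 1 of the miR-130/miR-454 pair were up-regulated in Hep3B-C. No member of the miR-34 group, the miR-183 cluster or the Xp11 cluster was called in either line.

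Over both lines together, with the parent line as a block and the lines as the only replicates, edgeR's quasi-likelihood test called none of the 77 members that passed its count filter (background 0% of 443 miRNAs at an adjusted p of 0.05). At an unadjusted p under 0.05 there were 3 of the 77 members, hsa-miR-589*, hsa-miR-675* and hsa-miR-7-1*, all lower in HCSCs. How many of the 443 miRNAs reached this unadjusted p was not counted. The number of members was 0 with total reads as library sizes, 1 without the block and 8 without the count filter. The smallest edgeR adjusted p of a member was 0.544 (hsa-miR-589*, log2 fold-change −2.70), and DESeq2 called no member, with 0 at an unadjusted p under 0.05 (background 0.903% called higher and 0.226% lower, 4 and 1 of 443 miRNAs). This fit had 1 residual degree of freedom.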

How the data were processed

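Per the study's methods, the authors sequenced small RNA on an Illumina Genome Analyzer II, removed contaminant and redundant reads and reads under 18 nt, aligned the rest with SOAP to NCBI Build 36.1, set aside other small RNA classes and searched miRBase release 17. How reads that match several miRNAs were counted is not given in the sources used here. The authors deposited raw counts of 1733 miRNAs per library, with no normalization. No column of other samples was present. TPM was computed here from these counts and the total reads stated by the study.

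The members and gene groups were chosen with earlier results of these data known. Pairs (1 library a condition) were compared by Audic and Claverie's exact test of Poisson counts over all miRNAs with at least 1 count, and arm ratios by Fisher's exact test over all hairpins with 2 named arms, both 2-sided, Benjamini-Hochberg adjusted within the pair and called at a log2 change of 1 or more in either direction and an adjusted p no higher than 0.01. A TPM of 0 was set to 0.001 for the fold threshold, and no such fold is given. Both lines were fitted by edgeR 4.0.16 (TMM, quasi-likelihood, at least 10 counts in at least 2 libraries). Intervals are 95% exact (Clopper-Pearson for shares) and cover counting error only.

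The named members were the 4 largest called rises and falls of the ratio per pair with at least 10 counts of each arm, the 5 highest by mean TPM, up to 8 by mean share among those over their guide, those called the same way in both pairs, the member of the study's list, and examples of the groups of related hairpins. Others are named as picked out later. Alternatives were other library sizes (total miRNA counts, TMM, DESeq2 1.42.0 size factors), count filters, a fold minimum of 4, an assumed biological coefficient of variation of 0.4, members of mean count 10 or more, and leaving out guides found by a removed locus suffix. In simulated counts with Poisson noise, the pair test recovered 100% of 200 4-fold changes in each pair, over 789 miRNAs within the Hep3B line and 724 within the Huh7 line. These changes were placed only in miRNAs of higher expected counts, where recovery was nearly certain, so the rate does not cover the others. The ratio test recovered 87.2% of 47 among 94 hairpins (Hep3B line) and 82.4% of 51 among 102 (Huh7 line). The ratio calls were made over 195 and 181 hairpins, so the recovery rates do not cover all of them. Recovery for members of few counts was not tested separately. Positions are those of GENCODE release 29 (GRCh38), matched by name, and sequences those of RefSeq (GRCh38.p14), matched by arm name. Computations used Python 3.11.15, scipy 1.17.1 and R 4.3.3.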

Additional observations from a re-analysis of the deposited data

Results flagged for a closer look

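The level of 5 named passengers was called in opposite directions in the 2 lines, up-regulated in Hep3B-C and down-regulated in Huh7-C. Of all miRNAs with at least 10 counts in a library of the pair, 57.7% were called up-regulated within the Hep3B line. Within the Huh7 line 30.4% were called down-regulated. How many of all miRNAs had both calls was not counted. No test was made of the difference between lines, as each condition had 1 library. The log2 fold-change was 2.94 within the Hep3B line and −1.64 within the Huh7 line for hsa-miR-29b-1*, and 2.02 and −2.22 for hsa-miR-30a*. It was 1.25 and −1.31 for hsa-miR-16-2*, 1.5 and −1.79 for hsa-miR-148a*, and 3.66 and −1.16 for hsa-miR-625*. The members hsa-miR-192* (2.05 and −2.17) and hsa-miR-30c-2* (1.87 and −2.68) were called in the same opposite directions. Scaled to total miRNA counts, the directions of hsa-miR-29b-1*, hsa-miR-30a* and hsa-miR-625* stayed opposite, at 1.18 and −1.13, 0.26 and −1.70, and 1.90 and −0.64. None of the 3 was then called in opposite directions, as the calls of hsa-miR-29b-1* and hsa-miR-30a* within the Hep3B line and of hsa-miR-625* within the Huh7 line were lost. The directions of hsa-miR-16-2* (−0.52 and −0.79) and hsa-miR-148a* (−0.26 and −1.27) did not stay opposite with total miRNA counts. With TMM hsa-miR-29b-1* was called in opposite directions, at 1.79 and −1.14, and with DESeq2 size factors too, at 1.78 and −1.03. The calls of hsa-miR-30a*, hsa-miR-16-2*, hsa-miR-148a* and hsa-miR-625* were not opposite with either. The passenger to guide ratio of none of these 5 was called in opposite directions.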

How the results depend on the processing

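Calls of levels depended on the library size, since total reads, of which miRNAs were between 10.4% and 54.1%, shift every miRNA of a pair alike. Within the Hep3B line the 37 members called up-regulated became 5 with total miRNA counts, 11 with TMM, 11 with DESeq2 size factors and 2 with a biological coefficient of variation assumed at 0.4, and the 4 down-regulated became 20, 9, 11 and 0. Within the Huh7 line the 0 up-regulated became 3 under each of the other library sizes, and the 30 down-regulated became 16 under each, and 0 with the assumed variation. With total miRNA counts the log2 fold-change within the Hep3B line turned to −0.52 (hsa-miR-16-2*), −0.18 (hsa-miR-125b-2*), −0.53 (hsa-miR-374b*), −0.49 (hsa-miR-18a*), −0.26 (hsa-miR-148a*), −0.51 (hsa-miR-374a*) and −0.66 (hsa-miR-221*), and that of hsa-miR-221* to −0.053 with TMM and −0.067 with DESeq2 size factors.

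Called ratios use no library size. The alternatives run for them changed only thresholds and the members kept, so no ratio could change its value or sign. With a fold minimum of 4, the ratios called higher went from 8 to 2 (Hep3B line) and from 6 to 0 (Huh7 line), and those called lower within the Huh7 line from 12 to 6. Leaving out guides found by removing a locus suffix took those called lower within the Hep3B line from 5 to 2, as 3 of them share a guide among loci. The count over both lines was 0 in each direction with and without the replicate block (which pairs each HCSC culture with its parent line), without the count filter, with total reads, with DESeq2 and without each library in turn. Few counts limit hsa-miR-589* and hsa-miR-7-1*, at between 7 and 9 counts in the HCSC libraries.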
